A study of Mus musculus with 8 samples.

Results

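A set of 10 genes of the scar-forming matrix was followed across 8 heart libraries. They were chosen by gene symbol for roles in fibrosis, with earlier results of these data known. Postn, Sparc, Thbs1, Tnc and Spp1 encode matricellular proteins, and Lox, Loxl1 and Loxl2 encode lysyl oxidases. Fn1 encodes fibronectin, and Sfrp1 a secreted protein that binds Wnt ligands. All 10 were found, each in a single row, among 34745 genes. Messenger RNA of whole mouse hearts was sequenced in bulk in 3 groups, all on the Balb/c strain. The control group held 2 wild-type libraries labelled day 0. The EAM wild-type group held 3 libraries labelled day 21 of experimental autoimmune myocarditis (EAM), a heart inflammation raised by immunization with a peptide of the cardiac myosin heavy chain in complete Freund's adjuvant. The EAM Trim21 KO group held 3 libraries of hearts that lack Trim21, an E3 ubiquitin ligase, at the same labelled day and after the same immunization. The treatment protocol gives control mice adjuvant with buffer, whereas their labels read day 0. Names of the libraries in a second deposited sheet give day 35 for both EAM groups, and this difference from the labels was not resolved. The labels do not give the age of the mice, how the knockout was made, or knockout hearts without EAM.

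Matricellular proteins are secreted into the extracellular matrix, where they signal to cells through integrins and other receptors more than they build structure. Several are known to be made in larger amounts by activated fibroblasts, and some by macrophages, after injury. Lysyl oxidases are copper enzymes that oxidize lysines of collagen and elastin, so that the fibres become cross-linked and stiff.

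Values are FPKM as deposited by the authors, meaning fragment numbers divided by gene length and by the size of the library. Steps between the lowest values put each library at 14390000 to 16930000 fragments. Trim21 was at 1.98 and 2.18 FPKM in control, at 2.98, 3.29 and 3.37 in EAM wild type, and at 0.0481, 0 and 0.022 in EAM Trim21 KO, so its level matched the genotype labels. Heart muscle markers were abundant in every library, with a summed level of 8 genes from 10788 to 14345 FPKM. Libraries differed in atrial content. Sln, a gene of atrial muscle, was above 100 FPKM in EAM Trim21 KO 1, EAM Trim21 KO 2 and EAM wild type 2 (395 to 531 FPKM) and at most 58.9 FPKM in the other 5. The earlier names carry a different number for each library of a group (2, 5 and 6 for EAM Trim21 KO, 1, 3 and 4 for EAM wild type, 1 and 2 for control) without saying what it counts. Since neither they nor the labels state separate animals, p-values measure the spread between these libraries, which may be technical.

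Levels per exon length spanned a wide range. Sparc, which encodes the collagen-binding protein osteonectin, was by far the most abundant in EAM wild type, at 271 ± 25.9 FPKM (SD, n = 3), followed by Loxl1 at 32.2 ± 2.17. Loxl2, Fn1, Postn and Sfrp1 came next at 7.08 ± 0.891, 6.52 ± 1.34, 6.32 ± 0.507 and 6.23 ± 1.71, which did not differ from each other beyond their spread. Thbs1 stood at 3.49 ± 1.19 FPKM. Tnc, Spp1 and Lox were below 1 FPKM in all 8 libraries, at 0.653 ± 0.106, 0.604 ± 0.109 and 0.568 ± 0.213 in EAM wild type. These 3 genes missed the minimum for testing, 1 FPKM or more in 2 or more libraries, and the other 7 passed it with every library above 1.

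**Figure D1:**
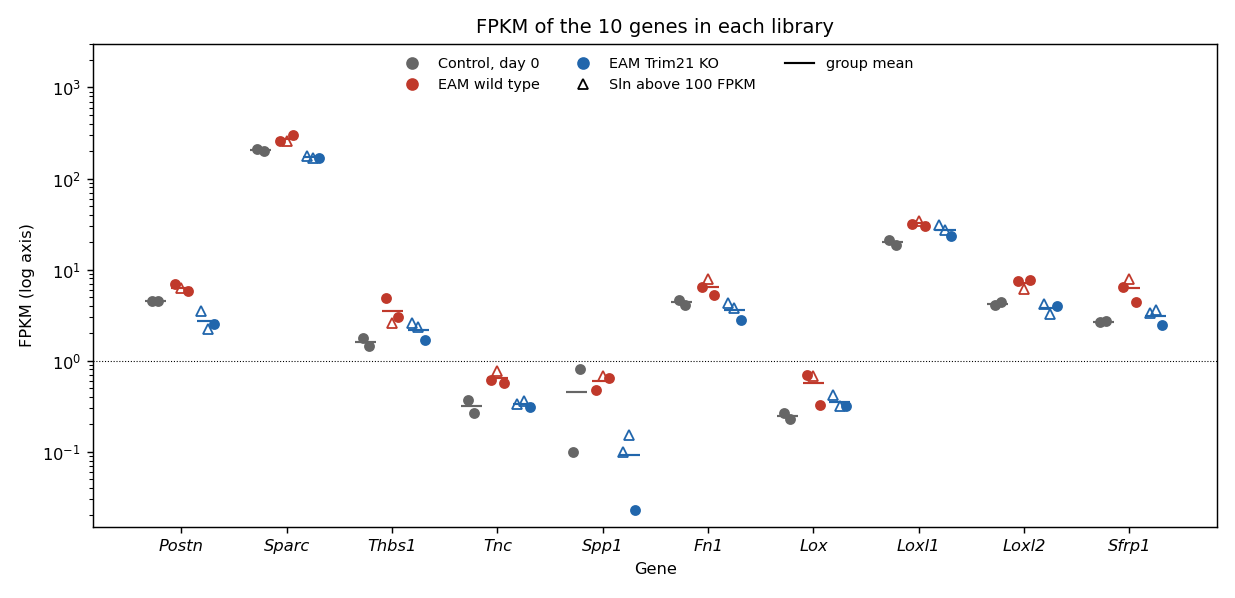
FPKM of the 10 genes (log axis) in each library, with control in grey, EAM wild type in red and EAM Trim21 KO in blue. Horizontal lines are group means, open triangles are the 3 libraries with Sln above 100 FPKM, and the dotted line marks 1 FPKM. Sparc lies highest in every library, and Tnc, Spp1 and Lox lie below 1 FPKM throughout.

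Periostin, the product of Postn, is a matricellular protein of activated fibroblasts that binds collagen and integrins. Postn (ENSMUSG00000027750, mm10 chromosome 3, 54361109 to 54391037, plus strand) was at 4.52 and 4.48 FPKM in control. It was at 6.87, 6.23 and 5.87 in EAM wild type and at 3.52, 2.21 and 2.54 in EAM Trim21 KO. No library of any group overlapped another group: every EAM wild-type value was above control, and every knockout value was below control. Against EAM wild type, Postn fell in EAM Trim21 KO by 0.98 on the log2(FPKM + 1) scale (SE 0.13, limma adjusted p = 0.00874), and its mean was 0.436 times that of EAM wild type. Relative to control, EAM wild type was higher by 0.41 (SE 0.15), which missed the threshold (limma adjusted p = 0.238).

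Osteonectin helps collagen to be processed and laid down. Sparc (ENSMUSG00000018593, chromosome 11, 55394500 to 55420080, minus strand) was at 212 and 202 FPKM in control, at 255, 256 and 301 in EAM wild type, and at 179, 166 and 168 in EAM Trim21 KO. Its groups were also fully separate, in the same order as those of Postn. Between the genotypes Sparc fell by 0.66 (SE 0.12, limma adjusted p = 0.0231), to 0.632 times the EAM wild-type mean. Against control, EAM wild type differed by 0.38 (SE 0.13, limma adjusted p = 0.209).

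Promoter windows of these genes are shown because Postn and Sparc were the members with a window that passed the test between genotypes. RefSeq windows (GRCm38.p6, the build called mm10) run from 250 bases before to 50 after a start site, and 4 of the 10 members matched, Postn, Sparc, Tnc and Spp1. Thbs1, Fn1, Lox, Loxl1, Loxl2 and Sfrp1 were not matched. Capitals mark matches, on either strand, to TGANTCA for AP-1, GGAATG for TEAD, CAGACA for the CAGA box of SMAD proteins or TATAAA for a TATA box. The Postn window is chr3:54360857-54361156 on the plus strand, and the Sparc window is chr11:55420031-55420330 on the minus strand.
Postn: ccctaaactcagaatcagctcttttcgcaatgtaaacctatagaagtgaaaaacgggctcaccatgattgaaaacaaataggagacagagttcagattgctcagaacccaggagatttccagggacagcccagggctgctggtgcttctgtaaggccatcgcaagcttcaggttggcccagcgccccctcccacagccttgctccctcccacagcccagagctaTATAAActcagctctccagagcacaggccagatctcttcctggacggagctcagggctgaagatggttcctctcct
Sparc: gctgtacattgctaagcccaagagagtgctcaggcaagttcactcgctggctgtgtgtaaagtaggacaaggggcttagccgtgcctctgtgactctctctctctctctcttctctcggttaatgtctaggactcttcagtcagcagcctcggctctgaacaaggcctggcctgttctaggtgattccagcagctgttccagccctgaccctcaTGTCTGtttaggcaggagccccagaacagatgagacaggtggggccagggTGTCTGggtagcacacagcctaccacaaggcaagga
The Postn window held a TATAAA that begins 26 bases before the start site, a match present in 13.6% of all 32851 windows. The Sparc window held the CAGA box in reverse orientation at 2 positions, and 21.0% of all windows hold that motif on either strand. Tnc has 2 overlapping windows, each with a CAGA box. They share 1 TATAAA, which begins 205 bases before one start site and 126 before the other. Spp1 has both motifs in its upstream window, with TATAAA 211 bases before the start site. Neither the AP-1 nor the TEAD letters, present in 7.81% and 14.7% of all windows, were in a window of these 4 genes. A second Postn window upstream of this start site and a second Spp1 window held none of the 4 motifs.

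Thrombospondin-1, encoded by Thbs1, is an adhesive glycoprotein that can activate latent TGF-beta. Thbs1 (ENSMUSG00000040152, chromosome 2, 118111876 to 118127133, plus strand) was at 1.77 and 1.44 FPKM in control, at 4.85, 2.61 and 3.01 in EAM wild type, and at 2.56, 2.33 and 1.68 in EAM Trim21 KO. EAM wild type lay above control in every library, and its lowest library lay barely above the highest knockout library. Neither difference passed, at 0.76 for EAM wild type against control (SE 0.21, limma adjusted p = 0.126) and -0.47 for EAM Trim21 KO against EAM wild type (SE 0.19, limma adjusted p = 0.201).

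Fibronectin, encoded by Fn1, forms a provisional matrix on which collagen assembles. Fn1 (ENSMUSG00000026193, chromosome 1, 71585520 to 71653200, minus strand) was at 4.69 and 4.06 FPKM in control, at 6.47, 7.89 and 5.20 in EAM wild type, and at 4.27, 3.81 and 2.82 in EAM Trim21 KO. Knockout and EAM wild-type libraries did not overlap, while knockout and control did. The difference between genotypes was -0.70 (SE 0.16, limma adjusted p = 0.0559) and did not pass. It passed under 3 of 19 other settings. These were the fit without EAM wild type 3 (limma adjusted p = 0.0498), a fit that held a score of atrial genes constant (0.0204), and the replicate block (0.0328). Under the other 16 it did not pass, among them median-ratio scaling (limma adjusted p = 0.149) and quantile normalization (0.145). The table does not separate the splice forms of fibronectin.

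Among the lysyl oxidases, Loxl1 and Loxl2 were the more abundant. Loxl1, which is known for its part in elastic fibre upkeep (ENSMUSG00000032334, chromosome 9, 58287723 to 58313212, minus strand), was at 21.4 and 18.7 FPKM in control, at 32.0, 34.5 and 30.2 in EAM wild type, and at 31.0, 27.0 and 23.3 in EAM Trim21 KO. All EAM libraries of either genotype were above control, and the genotypes overlapped. Loxl1 differed by 0.66 between EAM wild type and control (SE 0.15, limma adjusted p = 0.0708) and by -0.25 between genotypes, with a 95% interval from -0.55 to 0.05 (limma adjusted p = 0.329).

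Loxl2, which cross-links collagen (ENSMUSG00000034205, chromosome 14, 69609068 to 69695834, plus strand), was at 4.05 and 4.38 FPKM in control, at 7.51, 6.06 and 7.68 in EAM wild type, and at 4.24, 3.22 and 4.02 in EAM Trim21 KO. The knockout libraries overlapped control and lay below every EAM wild-type library. Loxl2 fell between genotypes by 0.74 (SE 0.12, limma adjusted p = 0.0177), to 0.540 times the EAM wild-type mean. Its difference between EAM wild type and control was 0.63 (SE 0.14, limma adjusted p = 0.0678).

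Within each library, Loxl2 stood at 19.0% and 23.5% of the Loxl1 level in control, at 23.5%, 17.5% and 25.4% in EAM wild type, and at 13.7%, 12.0% and 17.2% in EAM Trim21 KO. Knockout ratios lay below all EAM wild-type ratios, narrowly for EAM Trim21 KO 3 and EAM wild type 2. A two-sided exact permutation test of the log2 ratio between genotypes gave p = 0.1, the smallest that 3 against 3 libraries allow, so this design cannot reach 0.05. The ratio was picked after the values of both genes had been seen.

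Lox, the founding enzyme of the family (ENSMUSG00000024529, chromosome 18, 52516069 to 52529867, minus strand), was low, at 0.269 and 0.228 FPKM in control. EAM wild type held 0.699, 0.683 and 0.323 FPKM, whereas EAM Trim21 KO held 0.421, 0.317 and 0.320. The fragment equivalents were 48.1, 50 and 22.4 in EAM wild type and at most 30.1 in the other groups. EAM wild type 3 lay within the knockout range, so the genotypes overlapped, and both EAM groups were above control in every library.

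Sfrp1, a secreted protein that binds Wnt ligands and dampens their signal (ENSMUSG00000031548, chromosome 8, 23411502 to 23449632, plus strand), was at 2.66 and 2.71 FPKM in control. It was at 6.50, 7.79 and 4.41 in EAM wild type and at 3.30, 3.57 and 2.47 in EAM Trim21 KO. Every EAM wild-type library exceeded both other groups, and the knockout libraries lay around the control values. Sfrp1 fell between genotypes by 0.80 (SE 0.18), just inside the threshold (limma adjusted p = 0.0499). It had the largest difference of the 7 tested members between EAM wild type and control, 0.94 (SE 0.20), which did not pass (limma adjusted p = 0.0583) and did so without EAM wild type 3 (limma adjusted p = 0.0195).

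Tenascin-C, the product of Tnc, is a matricellular protein of tissue repair. Tnc (ENSMUSG00000028364, chromosome 4, 63959785 to 64047015, minus strand) was at 0.373 and 0.266 FPKM in control, at 0.614, 0.774 and 0.573 in EAM wild type, and at 0.337, 0.363 and 0.308 in EAM Trim21 KO, or 30.4 to 92.2 fragments per library. EAM wild type was separate from both other groups, which overlapped. With no filter on low values, Tnc differed between genotypes by -0.31 (SE 0.07, limma adjusted p = 0.0928).

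Osteopontin, encoded by Spp1, is secreted by activated macrophages among other cells. Spp1 (ENSMUSG00000029304, chromosome 5, 104435118 to 104441050, plus strand) was at 0.0990 and 0.810 FPKM in control, the widest relative gap between replicates of any member. EAM wild type held 0.479, 0.680 and 0.653 FPKM, and EAM Trim21 KO 0.0994, 0.155 and 0.0227. The knockout libraries held the equivalent of 2.5, 4.0 and 0.6 fragments, against 11.4, 17.2 and 15.7 in EAM wild type, and 3 fragments correspond to 0.108 to 0.127 FPKM. Every knockout value lay below every EAM wild-type value, and the knockout mean was 0.153 times that of EAM wild type. With no filter on low values, Spp1 differed between genotypes by -0.55 on the log2(FPKM + 1) scale (SE 0.17, limma adjusted p = 0.188), which did not pass. This scale understates changes at such low values, and the knockout values rest on few fragments.

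Setting EAM wild type against control asked what the disease model changes. No member passed the threshold, while 1.36% of 10393 tested genes were called higher. All 7 tested members had positive differences, as did 66.7% of all tested genes. The members' median was 0.63, against 0.08 over all tested genes. The members were chosen with earlier results of these data known, so such contrasts with all genes only describe them. The EAM wild-type libraries lay above both controls for 7 of 7 tested members, as they did for 24.6% of all tested genes, and for Tnc and Lox but not Spp1 among the untested. At an unadjusted p under 0.05 by limma, all 7 tested members counted, against 14.6% of all tested genes. With the atrial score as a covariate Fn1 went from 0.47 to 0.21 (SE 0.16), Loxl1 from 0.66 to 0.49 and Sfrp1 from 0.94 to 0.70. Postn stood at 0.36, Sparc at 0.38, Thbs1 at 0.74 and Loxl2 at 0.73 in that fit. Median-ratio scaling put Postn at 0.31 (SE 0.16), Fn1 at 0.37 (SE 0.18) and the members' median at 0.525. Day and immunization differ together here and cannot be told apart.

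Setting the 2 EAM genotypes side by side asked what loss of Trim21 changes in the diseased heart. With no knockout hearts outside EAM, whether that change depends on disease was not tested. Of 7 tested members 4 fell, Postn, Sparc, Loxl2 and Sfrp1, and none rose, while 2.80% of all tested genes were called lower. All 7 differences were negative, as were those of 72.8% of all tested genes. The members' median was -0.70, against -0.12 over all tested genes. As the choice of members followed earlier results, this contrast with all genes is descriptive too. Scaling by median ratios moved the median of all tested genes from -0.12 to 0.00404 and that of the members to -0.57. Knockout libraries lay below every EAM wild-type library for 6 of 7 tested members, all but Loxl1, as they did for 22.6% of all tested genes, and also for Tnc and Spp1.

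Postn kept its call when any library was left out and with either other scaling (limma adjusted p up to 0.0405). The call of Sparc ended without EAM Trim21 KO 1, 2 or 3 or EAM wild type 1 (limma adjusted p = 0.0515, 0.0987, 0.0813 and 0.0533). That of Loxl2 ended without EAM Trim21 KO 2, EAM wild type 1 or EAM wild type 3 (limma adjusted p = 0.0714, 0.0677 and 0.0513), with median-ratio scaling (0.0619) and with quantile normalization (0.0755). Sfrp1 lost its call under 15 of 19 settings, among them leaving out any library but EAM wild type 3 (limma adjusted p from 0.0826 to 0.144). Without the 3 libraries high in Sln, where EAM Trim21 KO 3 alone represents the knockout and is taken to have the same spread as the rest, none of the 4 passed (limma adjusted p from 0.134 to 0.367). Their differences in that fit were as large, -1.06 for Postn, -0.72 for Sparc, -0.78 for Loxl2 and -0.87 for Sfrp1. Atrial content still differed between the genotypes there, and its part in these differences was not tested. Sln was at 0.119 FPKM in EAM Trim21 KO 3, and at 15.5 and 58.9 in EAM wild type 1 and 3.

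**Figure D2:**
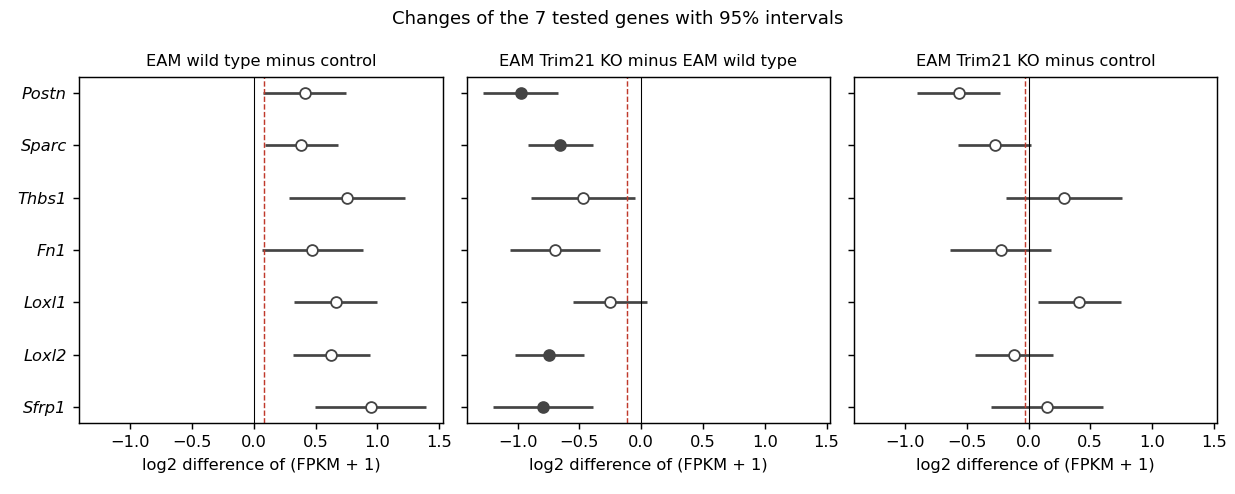
Differences of log2(FPKM + 1) for the 7 tested genes in the 3 comparisons, with 95% intervals from the limma fit. Filled points passed an adjusted p of 0.05 and dashed red lines mark the median of all 10393 tested genes. Filled points appear for Postn, Sparc, Loxl2 and Sfrp1 between genotypes, and all intervals in the left panel lie above 0.

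The comparison of EAM Trim21 KO with control set diseased knockout hearts beside undiseased wild-type hearts, which differ in genotype, day and immunization together. It shares libraries with both comparisons above. No member passed, while 0.568% of tested genes were called higher and 0.799% lower, and at an unadjusted p under 0.05 by limma 2 of 7 tested members counted, against 13.7% of all tested genes. Loxl1 lay above control in every knockout library, as did 14.1% of tested genes (difference 0.41, SE 0.15, limma adjusted p = 0.258). Postn and Sparc lay below control in every knockout library, as did 22.4% of tested genes (differences -0.57 and -0.27, SE 0.15 and 0.13, limma adjusted p = 0.123 and 0.399). Without EAM Trim21 KO 1 the lower Postn passed (limma adjusted p = 0.0492). Among the untested members, Lox was above control in every knockout library, and Tnc and Spp1 overlapped it.

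Libraries of a group also differed among themselves. EAM Trim21 KO 1 held the highest value of its group for 7 of the 10 members and EAM Trim21 KO 3 the lowest for 6. EAM wild type 2 was highest for 5 and EAM wild type 3 lowest for 6. The pair of control libraries differed little for Postn, at 4.50 ± 0.0250 FPKM (SD, n = 2), and widely for Spp1, at 0.454 ± 0.503.

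**Figure D3:**
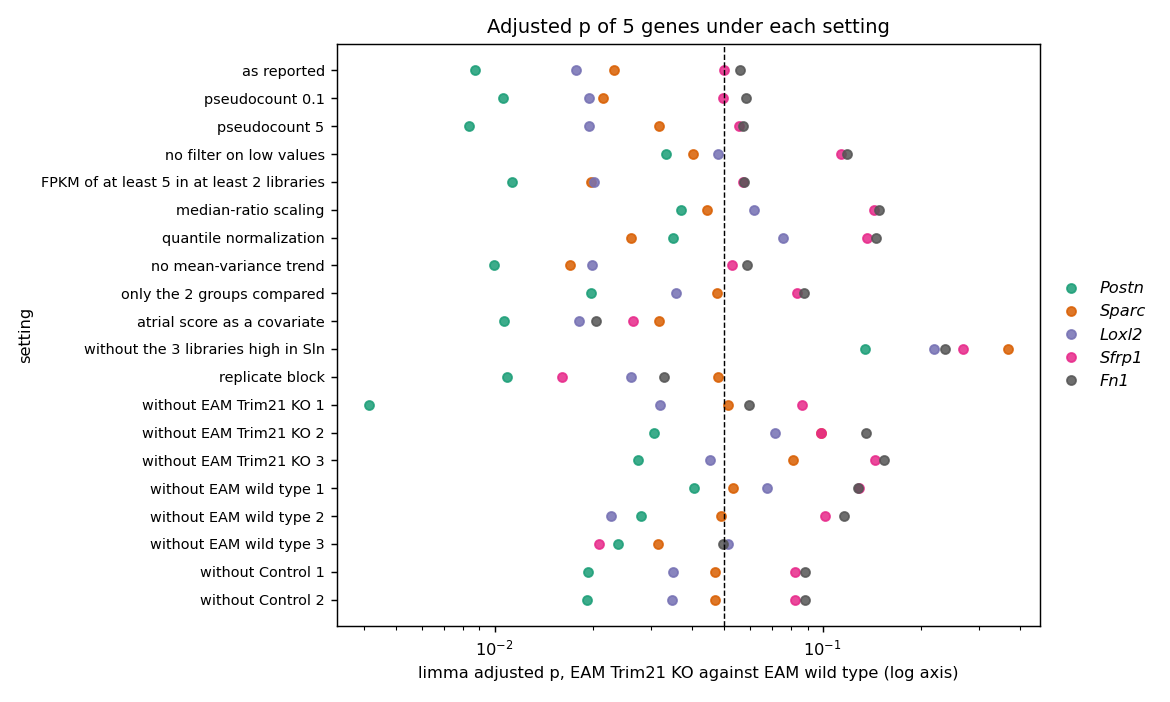
Limma adjusted p (log axis) for EAM Trim21 KO against EAM wild type under each setting, for 5 members. The dashed line marks 0.05. Postn lies left of it in all settings but the fit without the 3 libraries high in Sln, and Sfrp1 moves across it.

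Other genes of the matrix pathway were read from 8 lists. Of 17 tested further matricellular genes none passed in any of the 3 comparisons. Between genotypes their median was -0.46 and 14 differences were negative, against 72.8% of all tested genes. The abundant Sparcl1 and Smoc2, relatives of Sparc, were at 204 ± 2.04 and 41.4 ± 6.38 FPKM in EAM wild type, against 161 ± 6.55 and 33.6 ± 3.13 in the knockout (SD, n = 3 each; limma adjusted p = 0.145 and 0.315). Among the 3 positive was Cyr61, higher in every knockout library than in any EAM wild-type library. It stood at 33.4 ± 4.78 FPKM in EAM wild type and 42.9 ± 1.57 in the knockout (limma adjusted p = 0.173).

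Fibrillar collagens are substrates of the lysyl oxidases. Of 6 tested, Col3a1 and Col5a3 rose in EAM wild type against control, and Col3a1 and Col5a1 fell between genotypes. Col3a1 was at 21.6 ± 0.322 FPKM in control (SD, n = 2), 55.3 ± 9.35 in EAM wild type and 27.0 ± 4.56 in EAM Trim21 KO (SD, n = 3 each; limma adjusted p = 0.0173 between genotypes). Col5a3 had another order, with 3.39 ± 0.738 in control, 6.18 ± 0.352 in EAM wild type and 8.81 ± 0.367 in EAM Trim21 KO. It rose in EAM Trim21 KO against control by 1.17 (SE 0.13, limma adjusted p = 0.00285), and its difference between genotypes, 0.45, did not pass (limma adjusted p = 0.0673).

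In the list of collagen cross-linking, folding and processing genes, 15 were tested. Pcolce2, an enhancer of procollagen cleavage, fell between genotypes from 4.67 ± 0.488 to 2.83 ± 0.464 FPKM (SD, n = 3 each; limma adjusted p = 0.0344). P4ha1, a subunit of the enzyme that hydroxylates collagen prolines, fell in EAM Trim21 KO against control, from 13.5 ± 2.74 to 7.44 ± 0.710 FPKM (limma adjusted p = 0.0443). Of 11 elastic fibre genes Efemp2, a fibulin that binds lysyl oxidase, fell between genotypes from 3.90 ± 0.330 to 2.54 ± 0.344 FPKM (limma adjusted p = 0.0494).

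Of 14 tested receptor genes Cd44, a receptor for hyaluronan and osteopontin, fell between genotypes from 1.58 ± 0.138 to 0.832 ± 0.0590 FPKM (SD, n = 3 each; limma adjusted p = 0.0331). The 14 tested genes of TGF-beta signalling had a median difference of -0.34 between genotypes, with 12 negative, against 72.8% of all tested genes. The list of secreted frizzled-related proteins, frizzled receptors and other Wnt pathway genes had 10 tested, of which 5 differences were positive and 5 negative between genotypes, with a median of 0.02. Of these Frzb, a relative of Sfrp1, fell from 6.87 ± 0.172 to 3.55 ± 0.776 FPKM (SD, n = 3 each; limma adjusted p = 0.0152).

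Of 7 tested myofibroblast genes none passed in any of the 3 comparisons, and their median between genotypes was 0.02. Acta2, smooth muscle actin, was at 404 ± 79.6 FPKM in EAM wild type and 336 ± 35.5 in EAM Trim21 KO (limma adjusted p = 0.415), and Tagln at 23.4 ± 3.54 and 27.9 ± 9.30 (limma adjusted p = 0.643). The rise of Col5a3 in EAM Trim21 KO against control kept its call with any library left out. Other calls of these non-members did not. Leaving out 1 library ended the genotype call of Pcolce2 for 7 of the 8 libraries, of Col5a1 for 7, of Efemp2 and Cd44 for 8, and of Col3a1 and Frzb for 2 (EAM Trim21 KO 2 and EAM wild type 1 for each). The genotype calls of Col3a1, Col5a1, Pcolce2, Efemp2 and Cd44 also ended with median-ratio scaling and with quantile normalization, whereas that of Frzb did not. Against control, leaving out 1 library ended the calls of Col5a3 in EAM wild type for 7 of the 8, of Col3a1 for each control (limma adjusted p up to 0.106), and of P4ha1 for 7. With the atrial score in the fit, the calls of Col3a1 and Col5a3 in EAM wild type and of P4ha1 in the knockout ended too. The calls above, those of Col5a3 and Frzb included, ended without the 3 libraries high in Sln. That fit leaves EAM Trim21 KO 3 as the only knockout library.

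**Figure D4:**
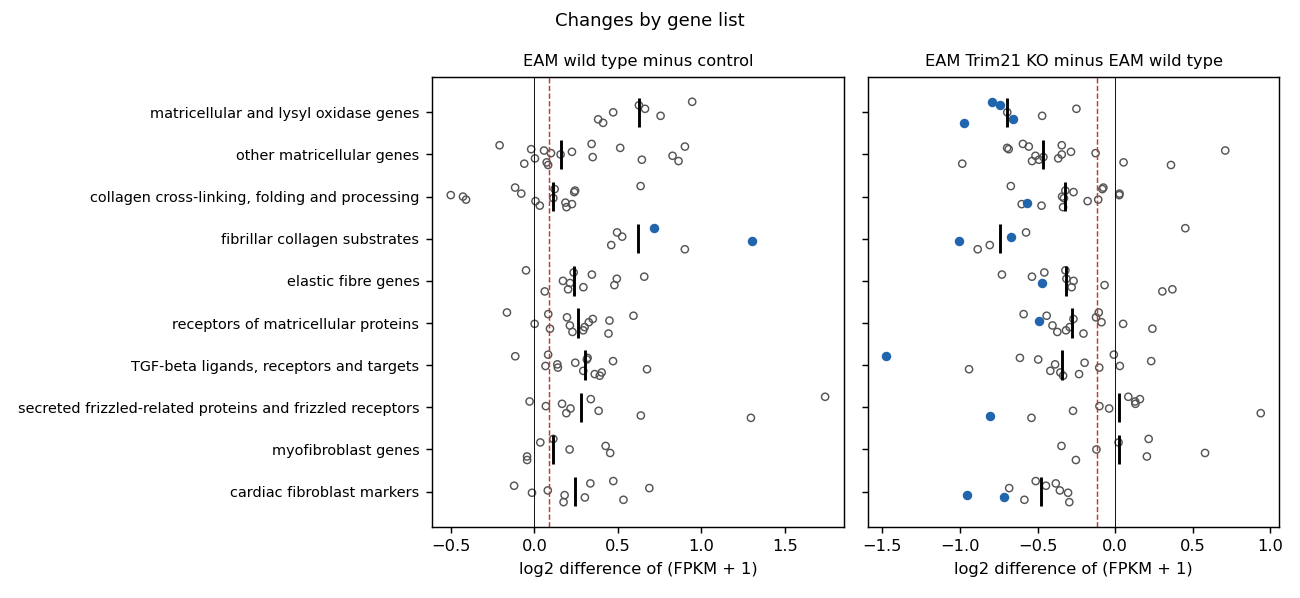
Differences of log2(FPKM + 1) for each tested gene, by list, in EAM wild type minus control (left) and EAM Trim21 KO minus EAM wild type (right). Filled blue points passed a limma adjusted p of 0.05, black bars are list medians and dashed red lines the median of all tested genes. The members' bar stands at 0.63 on the left and -0.70 on the right.

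Markers of other cell types were read beside the members. All 10 cardiac fibroblast markers had negative differences between genotypes (median -0.48), as did 72.8% of all tested genes. Against control 8 of the 10 were positive in EAM wild type, against 66.7% of all tested genes, and none of the 10 passed. Between genotypes Dcn and Lum, proteoglycans of collagen fibrils, fell (limma adjusted p = 0.0268 and 0.0177). Their calls ended without any of 6 and 3 of the 8 libraries in turn, for Lum without EAM Trim21 KO 2, EAM Trim21 KO 3 or EAM wild type 2. The summed level of the 10 markers was 1192 to 1231 FPKM in control, 1277 to 1513 in EAM wild type and 748 to 1247 in EAM Trim21 KO. That of 10 monocyte and macrophage markers was 134 to 157 FPKM in control, 255 to 315 in EAM wild type and 129 to 177 in EAM Trim21 KO, with 3 of 7 tested genes higher in EAM wild type than in control and 3 lower in the knockout than in EAM wild type. Lipid-associated macrophages are known to express Spp1. Sums over 8 of their markers were 579 to 585, 499 to 628 and 524 to 532 FPKM in the same order. Of these markers 0 of 7 tested genes passed between genotypes, with a median of -0.14, against -0.12 over all tested genes. The sums exceeded those of the monocyte and macrophage markers in every group, control included, and which cells they come from was not tested. In bulk libraries fewer cells of a type and less RNA per cell cannot be told apart, and the part of these cells in the members' differences was not tested.

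Atrial content varied within both EAM groups. The sum of 8 atrial genes was 171 to 214 FPKM in control, 398 to 5395 in EAM wild type and 303 to 4950 in EAM Trim21 KO. With the atrial score as a covariate Postn, Sparc, Loxl2 and Sfrp1 passed between genotypes (limma adjusted p = 0.0107, 0.0316, 0.0180 and 0.0264). Epicardial markers were low, with a sum of 5 genes at 0.475 to 5.75 FPKM and the highest sum in EAM Trim21 KO 1. Smooth muscle and pericyte markers summed to 549 to 585, 521 to 643 and 445 to 512 FPKM in control, EAM wild type and EAM Trim21 KO, with 0 of 8 tested genes passing in any comparison, and the part of these cells was not tested. T cell markers summed to 0.448 to 0.950, 2.83 to 5.03 and 1.32 to 3.57 FPKM in the same order, with 2 of 6 genes tested. Of these Cd3g rose in EAM wild type against control and fell between genotypes (limma adjusted p = 0.0320 and 0.0367), and Trac passed in neither. Endothelial markers summed to 155 to 166, 219 to 229 and 215 to 221 FPKM. All 7 tested were positive in EAM wild type against control (median 0.47) with none past the threshold, and 66.7% of all tested genes were positive. All 8 cardiomyocyte markers were negative there (median -0.25), with sums of 13374 to 14345 in control and 10788 to 12153 in EAM wild type and none past the threshold. Their part in the members' differences was not tested.

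No member spanned 1 unit of log2(FPKM + 1) between its group means, the limit set for a search of similar profiles. The search was run instead for the widest, Postn (0.98) and Sfrp1 (0.94), a choice made after the values were seen. Likeness was the root mean square difference between profiles over the 8 libraries, each centred on its own mean. The closest to Postn were Gm10116 and Fam46a at 0.127 each and 2410006H16Rik at 0.137. The closest to Sfrp1 were Col1a1 at 0.123, Csf2rb at 0.128 and C1ra at 0.129. Col1a1, the main fibrillar collagen gene, was at 26.8 and 27.3 FPKM in control. EAM wild type held 58.4, 65.3 and 35.5 FPKM, whereas EAM Trim21 KO held 33.5, 28.9 and 21.0.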

How the data were processed

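Messenger RNA of 8 mouse hearts' libraries was measured as bulk RNA-seq. The authors deposited FPKM values per gene and library. HISAT2 2.0.4, StringTie 1.3.3b, edgeR and mm10 appear, with no role or order, per the submitters' processing notes. For annotation, filters and strand the settings were not given in the sources used here. Reads of overlapping genes cannot be told apart.

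From the deposited FPKM, genes with at least 1 FPKM in at least 2 libraries (10393 of 34745) were tested on log2(FPKM + 1) with limma 3.58.1 in R 4.3.3. All 3 groups were in 1 fit with a mean-variance trend and 5 residual degrees of freedom, with Benjamini-Hochberg adjustment across all genes tested and a threshold of 0.05. Fold changes on this scale understate changes of low genes. The procedure was tested on simulated data. Depth and fragment equivalents came from steps between low values and GENCODE M21 exon lengths, and cover counting error only. Of the low values, 36.9% to 38.9% per library came out near whole fragments, so the equivalents are approximate.

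Members and gene lists were chosen with earlier results of these data known, so lists are described by counts and medians. All members were named. From each pathway list genes past the threshold were named, or the 2 most abundant where none passed, except for an item not reported here. Some symbols are older forms. Motifs were searched in RefSeq promoter windows. Alternatives covered the pseudocount, filter, scaling, variance trend, samples, atrial content, replicate number and each library left out.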

Additional observations from a re-analysis of the deposited data

How the results depend on the processing

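Between EAM wild type and control all 7 tested members stayed positive, and between EAM Trim21 KO and EAM wild type all stayed negative, under each of 19 settings (6 of 6 with a minimum of 5 FPKM, 18 settings for Thbs1). The number of members called between genotypes, 4, became 2 with median-ratio scaling and with quantile normalization, 0 without the 3 libraries high in Sln, and 1 to 4 when 1 library was left out. The number between genotypes was 5 with the atrial score as a covariate, Fn1 in addition (limma adjusted p = 0.0204). It was 3 with a pseudocount of 5, no filter, a minimum of 5 FPKM, no variance trend, or only the 2 groups compared. Of 0 called between EAM wild type and control, the replicate block gave 1 (Sfrp1, log2 difference 1.10, limma adjusted p = 0.0118) and leaving out 1 library 0 to 1. Against control the knockout had 0 members called, and 0 to 1 with 1 library left out. The difference of Sfrp1 between EAM Trim21 KO and control turned from 0.15 to -0.11 with the atrial score as a covariate and to -0.0851 without the 3 libraries high in Sln, none of them past the threshold. The cause was not tested.

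Counts over all genes moved more. For EAM wild type against control 155 became 91 with no filter, 77 with a minimum of 5 FPKM, 93 with median-ratio scaling, 75 with quantile normalization, 99 with only the 2 groups, 51 with the atrial score, 54 without the 3 libraries high in Sln, and 15 to 127 with 1 library left out. Between genotypes 321 became 180 with no filter, 195 with a minimum of 5 FPKM, 131 and 155 with the scalings in that order, 45 without the 3 libraries, and 94 to 237 with 1 left out. For the knockout against control 142 became 73 and 75 with those filters, 51 with the atrial score, 40 without the 3 libraries, and 35 to 168 with 1 left out. Median-ratio scaling moved calls between genotypes from 30 higher and 291 lower to 46 and 85, quantile normalization to 57 and 98. For EAM wild type against control they moved 141 and 14 to 74 and 19, and to 58 and 17.

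Whether replicate numbers pair the libraries was not resolved. Deviations from group means of same-numbered EAM libraries correlated at -0.09, 0.355 and 0.311 across genes. Those of differently numbered EAM libraries of the 2 genotypes correlated at -0.499 to 0.256. EAM Trim21 KO 2 and EAM wild type 2, the pair at 0.355, were both high in Sln. With the number as a block, 5 members were called between genotypes, Fn1 in addition (limma adjusted p = 0.0328), and 0 against control in the knockout. The low depth of Spp1, Lox and Tnc limits what can be said of them, and 2 control libraries limit both comparisons with control.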
